A study of Mus musculus with 19 samples.

Results

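The constitutive proteasome subunits are the genes of the core particle, the regulatory particle, the activators and the assembly factors of the proteasome that carry a Psma, Psmb, Psmc, Psmd, Psme, Psmf or Psmg symbol. Members were taken by symbol alone, without the inducible immunoproteasome subunits Psmb8, Psmb9 and Psmb10. Each of the 2 deposited tables held 45 members, of 51912 rows in the table of normal lung and NSCLC and of 24421 rows in the table of sensitive and resistant NSCLC. Of the 45, 8 belong to the alpha ring and 8 to the beta ring of the 20S core, 9 to the base and 8 to the lid of the 19S particle, 4 are activators, 1 is an inhibitor and 7 are assembly chaperones.

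Bulk RNA (a stranded mRNA library, paired reads of 150 bases) was sequenced from mouse organoids, 3-dimensional cell cultures, of normal lung (n = 3 libraries), non-small cell lung cancer (NSCLC, n = 4), immunotherapy-sensitive NSCLC (n = 3) and immunotherapy-resistant NSCLC (n = 9). The labels used here give no strain, genotype, age, cell line or drug for any group, and do not say which libraries share an animal or a culture. P-values therefore measure the spread between these libraries, which may be technical. Values are CPM, counts scaled to a common library size with the trimmed mean of M-values, and the 2 tables were analysed separately. A gene was called higher or lower at an adjusted p under 0.05 by edgeR's quasi-likelihood test with Benjamini-Hochberg adjustment over all genes tested, and every adjusted p below is of that kind.

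The proteasome is the protease complex that degrades ubiquitin-tagged proteins in the cytosol and nucleus of nearly every cell. Its barrel-shaped 20S core is a stack of rings, with structural alpha subunits at the ends and beta subunits, some of them catalytic, inside. The 19S particle caps the barrel. Its base holds the ATPases that unfold substrates, and its lid removes ubiquitin. The transcription factor NRF1 (Nfe2l1) raises the subunit genes together when proteasome activity falls, and the activator PA28 (Psme1 with Psme2) opens the barrel without ubiquitin. The series title concerns acquired resistance to immunotherapy and collagens expressed by cancer cells, and says nothing of the proteasome.

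Total counts ran from 20138197 to 21060762 in normal libraries and from 122967042 to 154479953 in NSCLC libraries, so that depth and group cannot be told apart in that table. Sensitive libraries held 15292427 to 18716749 counts and resistant libraries 11988677 to 24462955. All 6 epithelial markers were at a mean of 1 CPM or more in every group. Their summed level was 1714 to 1966 CPM in normal and 9041 to 13920 in NSCLC. It was 5283 to 6972 CPM in sensitive and 295 to 2279 in resistant libraries, so epithelial markers were far lower in resistant than in sensitive organoids. Of 8 fibroblast markers, which include collagens, 6 were at a mean of 1 CPM or more in normal libraries (summed 77.0 to 435 CPM) and 0 in NSCLC (0.282 to 0.683 CPM, with Lum and Postn at 0). The fibroblast sum was 11.4 to 31.9 CPM in sensitive and 64.8 to 970 CPM in resistant libraries. The 9 macrophage markers summed to 1579 to 2915 CPM in normal, 23.7 to 46.6 in NSCLC, 1631 to 3837 in sensitive and 228 to 1212 in resistant libraries. In normal libraries most of that sum was Lyz2, which alveolar epithelium also expresses, and without it the sums were 14.01 to 252 CPM. NSCLC libraries held 8.35 to 28.1 CPM of macrophage markers other than Lyz2, so the sums of normal and NSCLC overlapped once it was left out. Most of that NSCLC sum was Cd68, at 6.88 to 27.5 CPM against 2.38 to 9.49 CPM in normal libraries. Each macrophage marker was called lower in NSCLC except Cd68, which was called higher (log2 fold change 1.67 ± 0.58, adjusted p = 0.0406). For each marker called lower, every NSCLC library lay below every normal library. Apart from Lyz2, the highest NSCLC mean among them was that of Csf1r, at 0.452 CPM against 9.26 CPM in normal. In sensitive libraries the sum without Lyz2 was 408 to 1246 CPM and in resistant libraries 94.2 to 258 CPM. The 4 endothelial markers summed to at most 14.2 CPM in any library. All 4 T cell markers were at 0 in normal libraries and the T cell sum reached at most 0.0579 CPM in NSCLC, while the B cell sum was at most 0.302 CPM in that table. T cell sums were 4.25 to 7.86 CPM in sensitive and 0.740 to 18.8 CPM in resistant libraries. B cell sums were 2.29 to 3.29 and 0.590 to 17.03 CPM, both highest in resistant library 2. These marker levels move with the groups, and their part in the results below was not tested. In bulk RNA, a larger share of a cell type and more RNA per cell cannot be told apart.

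Several subunits have near-identical copies elsewhere in the genome, and the copies carry a result of this series, so their sequences are shown first. Copies were sought among annotated pseudogenes, with the gene Psme2b added by name. In mm10 with the GENCODE annotation, 14 members have such a copy with at least 90% identity over at least 300 bases. Psma3, an alpha-ring subunit, lies at chr12:70974621-70996347. Its processed pseudogene Gm13835 lies on another chromosome at chr6:31141979-31142663 and matches the coding sequence of Psma3 without a difference for 662 bases in a row, of 682 compared. Coding bases 104 to 253 of Psma3, the length of 1 read of 150 bases, are the same letters in both.
Psma3: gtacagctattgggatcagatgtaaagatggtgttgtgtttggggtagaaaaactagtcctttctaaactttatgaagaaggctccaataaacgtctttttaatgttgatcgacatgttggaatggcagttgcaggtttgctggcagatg
Gm13835: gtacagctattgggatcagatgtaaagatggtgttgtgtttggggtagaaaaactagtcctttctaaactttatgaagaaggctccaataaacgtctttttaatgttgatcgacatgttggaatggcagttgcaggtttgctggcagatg

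Psme2, the beta subunit of PA28, lies at chr14:55587441-55591113, and its intronless copy Psme2b at chr11:48945354-48946190. Over the 717 coding bases they differ at 5 positions, and 32.9% of the 568 places where a read of 150 bases can start are identical. The stretch with the most differences, coding bases 394 to 543, is printed with the 3 differing letters in capitals.
Psme2: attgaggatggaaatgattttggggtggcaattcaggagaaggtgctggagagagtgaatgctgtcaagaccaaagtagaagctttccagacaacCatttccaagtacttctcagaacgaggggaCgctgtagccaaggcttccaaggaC
Psme2b: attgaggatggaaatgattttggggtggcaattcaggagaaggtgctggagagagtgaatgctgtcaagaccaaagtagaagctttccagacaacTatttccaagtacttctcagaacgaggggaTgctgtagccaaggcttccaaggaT

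NSCLC was first compared with normal lung. Of 43 members tested, 32 were called higher in NSCLC and 0 lower, and 11 were not called. Over all 19932 genes tested, 28.5% were called higher and 25.0% lower, 53.5% in all, and the median log2 fold change was 0.11 against 0.65 for the members. The 0 members called lower were also 0 at an unadjusted p under 0.05 and 0 by DESeq2, which called 31 higher. The groups did not overlap, with NSCLC above normal, for 34 members, against 31.6% of all genes tested. For Psme4 alone every NSCLC library was below every normal library, against 27.7% of all genes. The 2 members left untested for low counts were Psma8, the alpha subunit of testis, with at most 2 counts in any library of this table, and Psmb11, the beta subunit of thymic epithelium, with 0 counts in normal and 2 to 10 in NSCLC libraries.

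**Figure D1:**
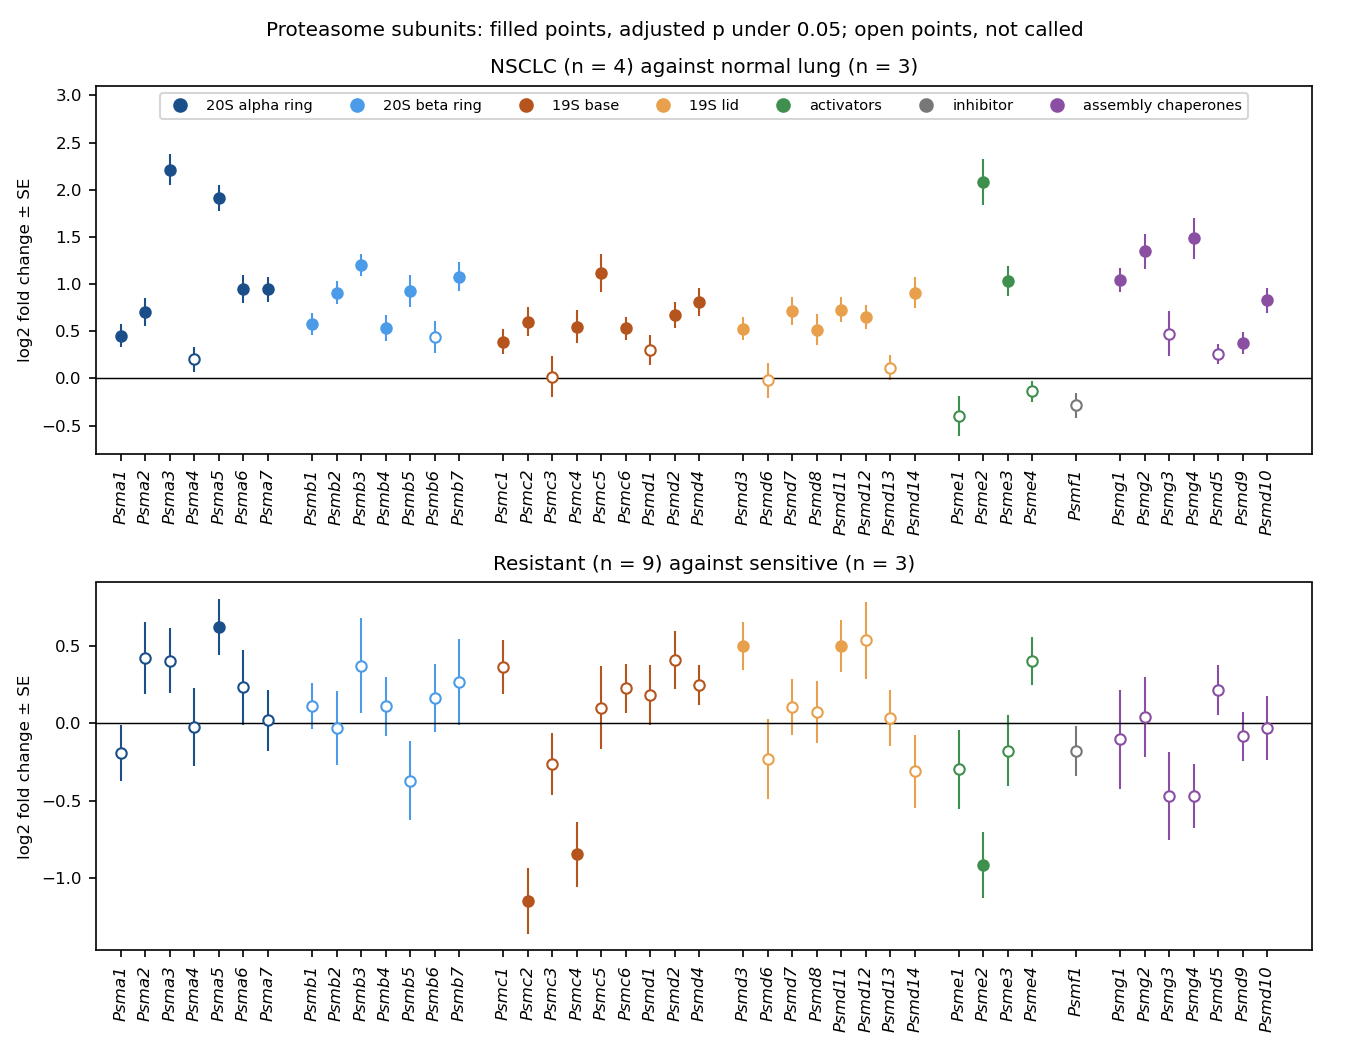
Log2 fold change ± SE of each tested subunit, grouped and coloured by its place in the proteasome, for NSCLC against normal (top) and resistant against sensitive (bottom). In the top panel 32 of 43 points are filled (called) and all of those lie above 0, while in the bottom panel 6 are filled, 3 on either side of 0.

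The alpha ring held Psma3, the member with the largest fold change as deposited, and 6 of its 7 tested members were called higher (median log2 fold change 0.94). Psma3 stood at 27.3, 39.5 and 31.6 CPM in the normal libraries and at 159, 136, 145 and 169 CPM in NSCLC. All 4 NSCLC libraries were above the normal range, and the log2 fold change was 2.21 ± 0.17 (SE, adjusted p = 2.46e-05). Psma5, another alpha subunit, stood at 21.6, 27.6 and 24.8 CPM in normal and at 104, 87.3, 90.2 and 89.7 CPM in NSCLC. Its groups did not overlap either (log2 fold change 1.91 ± 0.13, adjusted p = 1.86e-05). Psma4 was the alpha subunit that was not called, at 51.3 to 64.3 CPM in normal and 62.2 to 75.4 CPM in NSCLC.

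The beta ring carries the protease sites, and 6 of its 7 tested members were called higher (median 0.91). Psmb5, the chymotrypsin-like subunit and the main target of proteasome inhibitor drugs, stood at 25.6, 35.1 and 33.6 CPM in normal and at 52.0, 53.8, 59.5 and 73.7 CPM in NSCLC. The groups did not overlap (log2 fold change 0.93 ± 0.17, adjusted p = 0.00263). Psmb7, the trypsin-like subunit, stood at 43.7, 55.1 and 44.8 CPM in normal and at 104, 86.1, 96.9 and 118 CPM in NSCLC. Every NSCLC library was above every normal library (log2 fold change 1.08 ± 0.15, adjusted p = 0.000596). Psmb6, the caspase-like subunit, stood at 82.3, 124 and 105 CPM in normal and at 163, 133, 121 and 146 CPM in NSCLC. Normal library 2 lay above NSCLC library 3, and Psmb6 was the beta subunit that was not called (log2 fold change 0.44 ± 0.17, adjusted p = 0.0614). The largest change of the ring was that of Psmb3, a structural beta subunit, at 50.2, 58.2 and 57.3 CPM in normal against 132, 117, 122 and 138 CPM in NSCLC (log2 fold change 1.20 ± 0.12, adjusted p = 0.000105). Per kilobase of transcript, Psmb6 was the most abundant of the 3 catalytic subunits in both groups, at 130 ± 26.3 CPM per kilobase in normal (SD, n = 3) and 176 ± 22.6 in NSCLC (n = 4). Psmb7 (41.3 ± 5.41 and 87.3 ± 11.5) and Psmb5 (34.9 ± 5.70 and 66.5 ± 10.96) followed. Their levels lay within the sum of their SDs in both groups, but as deposited Psmb7 lay above Psmb5 within every library. That order of Psmb7 and Psmb5 held in normal libraries only as deposited. With copies summed, as described below, Psmb5 stood at 42.4, 63.0 and 57.7 CPM per kilobase in normal libraries, above Psmb7 at 37.7, 47.5 and 38.7 in each. In every NSCLC library Psmb7 stayed above Psmb5 with copies summed.

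The base of the 19S particle had 7 of 9 members called higher (median 0.55), and the lid 6 of 8 (median 0.59). Psmc5, an ATPase of the base, stood at 44.0, 71.1 and 58.9 CPM in normal and at 116, 119, 109 and 159 CPM in NSCLC, without overlap. Its log2 fold change of 1.12 ± 0.20 (adjusted p = 0.00233) was the largest of the base. Psmd14, the deubiquitinase of the lid, stood at 36.3, 50.7 and 41.1 CPM in normal and at 79.2, 77.5, 68.5 and 95.1 CPM in NSCLC. It too did not overlap, and led the lid with 0.91 ± 0.16 (adjusted p = 0.00214). The base members not called were Psmc3, an ATPase (log2 fold change 0.02), and Psmd1, a scaffold subunit (0.30). The lid members not called were Psmd6 (-0.02) and Psmd13 (0.12). The most abundant base gene per kilobase was Psmd2, a scaffold that binds ubiquitin receptors, at a mean of 80.9 CPM per kilobase in normal and 129 in NSCLC. Psmd8 led the lid at 100.02 and 143 CPM per kilobase.

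The activators were divided. Psme3 encodes the nuclear activator PA28 gamma and stood at 71.8, 81.4 and 72.1 CPM in normal and at 127, 155.1, 142 and 189.8 CPM in NSCLC. The groups did not overlap (log2 fold change 1.03 ± 0.16, adjusted p = 0.000969). Psme2 stood at 15.4, 19.4 and 16.3 CPM in normal and at 62.0, 49.8, 95.1 and 81.8 CPM in NSCLC as deposited, and its log2 fold change of 2.08 ± 0.24 (adjusted p = 0.000233) was lost once its copies were counted with it, as described below. Psme1, the alpha subunit that forms PA28 with Psme2, went with neither, at 86.9, 121 and 109 CPM in normal and 106, 58.1, 83.8 and 73.5 CPM in NSCLC. Its groups overlapped and it was not called (log2 fold change -0.40 ± 0.21, adjusted p = 0.150). Psme4, the activator PA200 of nuclear proteasomes, stood at 138, 135.0 and 143 CPM in normal and at 134, 134.97, 122 and 114 CPM in NSCLC. Its NSCLC values lay below the normal ones by little, and it was not called (log2 fold change -0.14 ± 0.11, adjusted p = 0.336). Psmf1, the inhibitor PI31, stood at 35.7, 31.8 and 36.8 CPM in normal and at 25.6, 27.3, 27.2 and 33.9 CPM in NSCLC. Only NSCLC library 4 reached into the normal range, and Psmf1 was not called (log2 fold change -0.29 ± 0.14, adjusted p = 0.113).

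Assembly chaperones help to build the rings and the base and are not part of the finished particle. Of 7, 5 were called higher in NSCLC (median 0.83), and all 7 had every NSCLC library above every normal one. Psmg4, a chaperone of the core, led with 4.53, 5.32 and 4.71 CPM in normal and 16.95, 14.05, 10.4 and 13.0 CPM in NSCLC (log2 fold change 1.49 ± 0.22, adjusted p = 0.000730). Its level was low in normal libraries, but the groups lay far apart. Psmg1 and its partner Psmg2 were also called (1.04 and 1.35). Among chaperones of the base, Psmd10 and Psmd9 were called (0.83 and 0.38) and Psmd5 was not (0.26, adjusted p = 0.0711). Psmg3 was not called (0.48, adjusted p = 0.128), at 2.43 to 3.74 CPM in normal libraries.

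The deposited counts of several of these genes were split with their copies in normal libraries and hardly at all in NSCLC. For Psma3, whose Gm13835 stretch is printed above, 66.1 to 67.2% of the counts on the gene and its 3 copies lay on the copies in the normal libraries, against 0.934 to 1.51% in NSCLC. In normal library 1 that was 584 counts on Psma3 and 1141 on its copies, and in NSCLC library 1 it was 19741 and 302. The share of Psma5 was 58.9 to 60.6% in normal and 0.756 to 1.07% in NSCLC. For Psme2 with Psme2b and a pseudogene, it was 72.6 to 77.9% and 6.98 to 7.70%. For Psmb5 it was 32.97 to 38.1% and 9.32 to 10.6%. Psma4 (20.8 to 22.7% in normal), Psma2 (11.8 to 14.3%) and Psmb3 (4.10 to 6.70%) followed, each below 1% in NSCLC. These 7 are the members for which copies held at least 5% in some normal library, against 2 in NSCLC, and none of the 7 is a 19S gene. The 2 groups do not overlap in this share for any of the 7. Whether reads of the 2 groups were aligned or counted differently is not given in the sources used here.

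When the counts of each gene and its copies were summed before the fit, an alternative chosen after seeing the data, 30 members were called higher and 0 lower. Over all 19908 genes then tested, 28.5% were called higher and 53.4% in either direction. The log2 fold change of Psma3 was then 0.65 ± 0.16 (adjusted p = 0.00844) and that of Psma5 was 0.60 ± 0.14 (adjusted p = 0.00635), so both kept their call at a much smaller size. Psme2 was no longer called (0.13 ± 0.25, adjusted p = 0.688), nor was Psmb5 (0.44 ± 0.18, adjusted p = 0.0715). Psma4 changed sign without a call in either fit (0.20 as deposited, -0.14 summed). Psmb3 stayed at 1.12 ± 0.12 (adjusted p = 0.000178), and Psmb7, Psmc5, Psme3 and Psmg4, which have no such copy, stood at 1.08, 1.12, 1.03 and 1.49 in both fits.

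**Figure D2:**
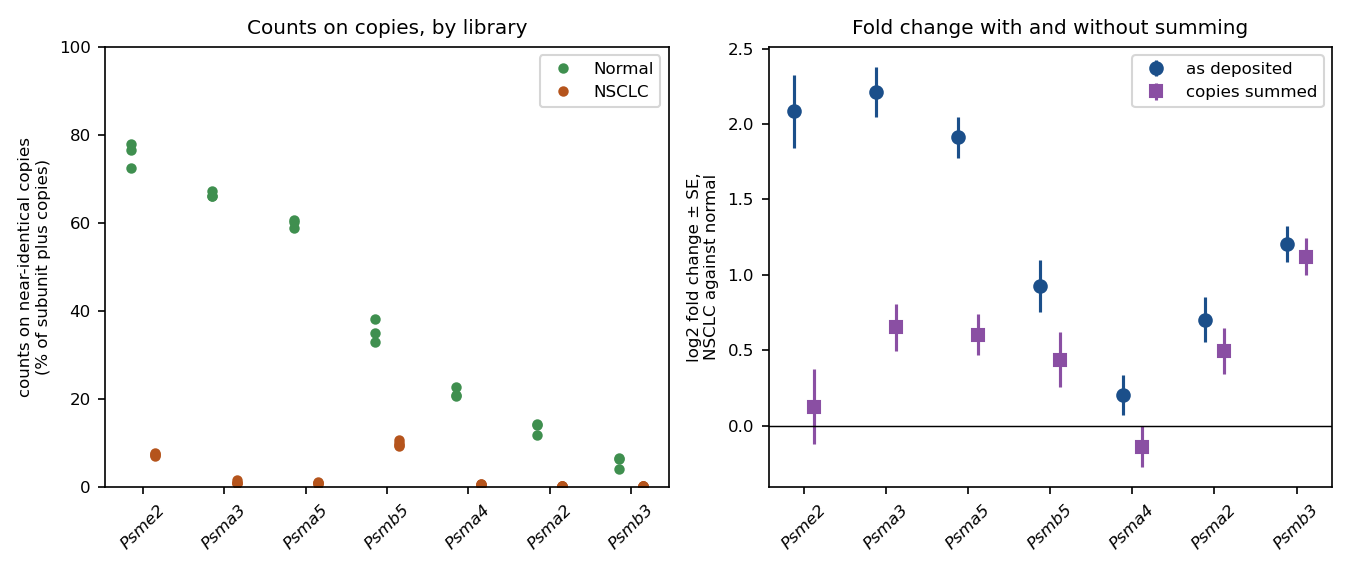
Left, the percentage of counts on near-identical copies, of the counts on the subunit plus its copies, in each normal and NSCLC library for the 7 members with the largest shares. Right, log2 fold change ± SE as deposited and with copies summed, where Psme2 drops from 2.08 to 0.13 and Psma3 from 2.21 to 0.65 while Psmb3 stays near its deposited value.

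The summing bears on the contrast between core and cap. As deposited, the median log2 fold change was 0.92 over the 14 tested 20S genes (12 called higher) and 0.55 over the 17 19S genes (13 called higher). With copies summed it was 0.59 over the 20S genes (11 called) and 0.55 over the 19S genes (13 called). Among the 8 tested 20S genes whose copies held under 5% in every normal library, 7 were called and the median was 0.75, and all 17 19S genes are of that kind. The difference between core and cap was not tested. Summed per kilobase, the 20S genes stood at 802, 1036 and 913 CPM per kilobase in normal and 1660, 1468, 1573 and 1695 in NSCLC, without overlap. With copies counted in, the normal libraries stood at 878, 1148 and 1012 and still lay below NSCLC (1477 to 1705). The 19S genes stood at 753, 924 and 836 CPM per kilobase in normal and at 1114, 1140, 1239 and 1406 in NSCLC, also without overlap. The ratio of the 19S sum to the 20S sum was 0.892 to 0.939 in normal and 0.671 to 0.830 in NSCLC as deposited, but 0.809 to 0.861 and 0.668 to 0.825 with copies summed. The groups thus did not overlap in the ratio as deposited and did overlap once copies were counted.

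**Figure D3:**
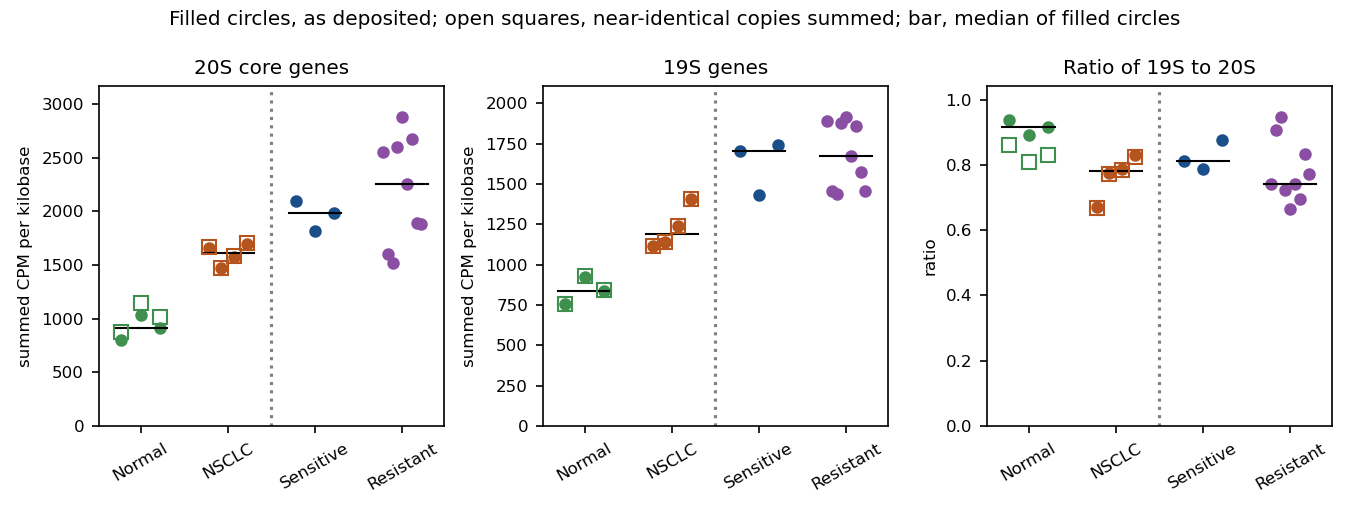
Summed CPM per kilobase of the 20S genes and of the 19S genes, and the ratio of 19S to 20S. Each library has 1 filled circle, as deposited, and the bar is the median of the circles. Normal and NSCLC libraries also have 1 open square each, with copies summed. The dotted line lies between the 2 tables, which are not comparable across it. Both sums are higher in every NSCLC library than in every normal one, and in resistant libraries the 20S sum runs from 1520 to 2882.

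Genes that work with the proteasome were also compared between NSCLC and normal lung. Of 31, 14 were called higher (45.2%) and 4 lower (12.9%) as deposited. Over all genes tested the shares were 28.5% and 25.0%, and that difference was not tested. Of 9 other 26S parts and partners, 7 were called higher and 0 lower, led by Uchl5, a deubiquitinase of the 19S particle (13.6 ± 1.34 CPM in normal, 39.9 ± 6.19 in NSCLC, log2 fold change 1.56 ± 0.17, adjusted p = 0.000146). Of 5 shuttle factors, which carry ubiquitinated proteins to the proteasome, 3 were called higher, led by Rad23b (1.45 ± 0.13, adjusted p = 6.99e-05). The 6 genes of NRF1 and its processing gave 1 call higher and 2 lower, and Nfe2l1 itself was not called (0.32 ± 0.16, adjusted p = 0.115). Ngly1, the deglycosylase that processes NRF1, was called lower (-0.97 ± 0.15, adjusted p = 0.00110). Vcp, the segregase that extracts NRF1 and other clients, was called higher as deposited (0.87 ± 0.17, adjusted p = 0.00332) but turned to -0.43 ± 0.16 (adjusted p = 0.0556) with copies summed, since 60.5 to 62.2% of its counts in normal libraries lay on copies. Among genes of ubiquitin and its activation, Rps27a, which encodes ubiquitin fused to a ribosomal protein, had a log2 fold change of 3.67 ± 0.20 as deposited (adjusted p = 5.61e-06) and of 0.49 ± 0.18 (adjusted p = 0.0486) with copies summed. Neither of 2 VCP partners was called by edgeR or DESeq2 (unadjusted p = 0.502 for Ufd1 and 0.405 for Nploc4). Of the 3 immunoproteasome genes, Psmb9 was called lower (-1.99 ± 0.68, adjusted p = 0.0376), a call that ended when any library other than NSCLC library 3 was left out (adjusted p of 0.0535 to 0.120). Their share of the catalytic sum per kilobase was 6.75 to 12.4% in normal and 3.47 to 5.50% in NSCLC. The sum of the 3 inducible genes itself overlapped, at 12.2 to 34.4 CPM per kilobase in normal and 11.6 to 17.5 in NSCLC. The sum of Psmb5, Psmb6 and Psmb7, also part of the share, was 169 to 242 in normal and 300 to 367 in NSCLC.

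The promoters of the members were searched because 32 of them were called in 1 direction in NSCLC. RefSeq windows (GRCm38.p6, 250 bases before to 50 after the start) were found for 37 members. The core of the antioxidant response element, which NRF1 and related factors bind, was spelled TGACNNNGC and searched on both strands. It lay in 6 of 37 member windows (16.2%) and in 12.5% of all 27025 windows. Of the 26 members with a window that were called higher, 4 held it, in Psmb5, Psmc6, Psmd9 and Psmd12. CCAAT, also on both strands, lay in 13 of 37 member windows (35.1%) and in 37.9% of all, and in 12 of the 26 members called higher. A match describes letters and not a bound site. The 150 bases before the start are shown for the 2 of these 4 whose match lies in them, with the match in capitals. Psmb5 reads along the minus strand at chr14:54617996-54618145 and Psmd9 along the plus strand at chr5:123228040-123228189.
Psmb5: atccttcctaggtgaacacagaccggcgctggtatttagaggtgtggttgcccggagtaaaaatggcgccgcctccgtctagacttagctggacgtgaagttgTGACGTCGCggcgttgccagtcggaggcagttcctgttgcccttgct
Psmd9: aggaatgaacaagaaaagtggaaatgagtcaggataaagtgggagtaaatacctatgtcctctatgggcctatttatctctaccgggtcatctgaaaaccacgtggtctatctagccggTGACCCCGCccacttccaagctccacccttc

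Resistant against sensitive NSCLC gave few calls. Of 43 members tested, 3 were called higher, 3 lower and 37 were not called. Over all 14360 genes tested, 19.3% were called higher and 18.2% lower, 37.5% in all, against 6 of 43 members, and that difference was not tested. Their median log2 fold change was 0.07 against 0.06 for all genes. DESeq2 also called 3 higher and 3 lower. Groups did not overlap for 5 members, 2 with resistant libraries above (14.8% of all genes) and 3 with resistant libraries below (16.5%). Psma8 had at most 16 counts and Psmb11 at most 4 in any library of this table, and neither was tested. Of the copies of members, Psme2b was the one analysed in this table, and summing changed no call.

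The 6 calls were spread over the alpha ring, the base, the lid and the activators. In the alpha ring, Psma5 stood at 145, 129 and 116 CPM in sensitive libraries and at 160 to 251 CPM in resistant ones (median 195). All 9 resistant libraries were above the sensitive range (log2 fold change 0.62 ± 0.18, adjusted p = 0.0168), but the call ended without sensitive library 2 (adjusted p = 0.0630) or 3 (adjusted p = 0.0871). None of the 7 tested members of the beta ring was called, 0 also at an unadjusted p under 0.05 and 0 by DESeq2. Psmb5 stood at 79.3, 76.1 and 76.3 CPM in sensitive and at 30.9 to 76.2 CPM in resistant libraries (median 65.3). It was lowest in resistant libraries 8 and 9, at 30.9 and 32.9 CPM, while the other 7 lay at 57.4 or above (log2 fold change -0.37 ± 0.25, adjusted p = 0.267). Psmb6 stood at 179, 154.7 and 167 CPM in sensitive and 126 to 249.3 CPM in resistant libraries (median 187), and Psmb7 at 171, 132 and 175 CPM and 113 to 323 CPM (median 173). The resistant libraries enclosed the whole sensitive range for both genes, and neither was called (adjusted p = 0.576 and 0.472). Per kilobase of transcript the order was Psmb6, Psmb7 and Psmb5 in both groups, with the copies of Psmb5 not analysed in this table.

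The base of the 19S particle held the largest fall. Psmc2, an ATPase of the base (chr5:21785283-21803787), stood at 268, 176 and 372 CPM in sensitive libraries and at 85.3 to 161 CPM in resistant ones (median 110). Every resistant library lay below every sensitive one, although the sensitive libraries spread over a ratio of 2.11 (log2 fold change -1.15 ± 0.21, adjusted p = 0.00134). Psmc4, another ATPase of the same ring (chr7:28041707-28050101), stood at 152, 120 and 153 CPM in sensitive and at 56.5 to 116 CPM in resistant libraries (median 70.7). Its groups did not overlap (log2 fold change -0.85 ± 0.21, adjusted p = 0.00718). These 2 calls held in every alternative run, and the adjusted p reached at most 0.0347 for Psmc2 and 0.0479 for Psmc4. The other 4 ATPases ran from -0.26 (Psmc3) to 0.37 (Psmc1) and were not called, so the calls covered 2 of the 6 ATPases.

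In the lid, Psmd3 and Psmd11 were called higher. Psmd11, a scaffold subunit, stood at 124, 113 and 130 CPM in sensitive and at 148 to 241 CPM in resistant libraries (median 160), without overlap (log2 fold change 0.50 ± 0.17, adjusted p = 0.0323). Psmd3, another scaffold subunit, stood at 187, 144 and 193 CPM and at 190 to 282 CPM (median 256), so that resistant library 2 lay within the sensitive range (log2 fold change 0.50 ± 0.16, adjusted p = 0.0224). Both calls depended on which libraries were kept. Without sensitive library 1 the adjusted p was 0.0518 for Psmd3 and 0.0821 for Psmd11. Without library 2 it was 0.134 and 0.127, and without library 3 it was 0.0714 for Psmd11, while Psmd3 kept its call. Psmd11 also lost its call without resistant libraries 8 and 9 together (adjusted p = 0.0550), and Psmd3 without 6, 8 and 9 (adjusted p = 0.0524). The median log2 fold change was 0.14 over the 20S genes and 0.11 over the 19S genes.

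Among the activators, Psme2 was called lower and Psme1 was not. Psme2 stood at 159, 127 and 116 CPM in sensitive and at 48.2 to 97.0 CPM in resistant libraries (median 63.1). All 9 resistant libraries lay below the sensitive ones (log2 fold change -0.92 ± 0.21, adjusted p = 0.00516), and without sensitive library 1 the call was missed by little (adjusted p = 0.0527). In this table Psme2b held 2.98 to 5.84% of the counts of the pair, and summing gave -0.93. Psme1 stood at 95.4, 94.2 and 89.4 CPM in sensitive and at 40.5 to 103 CPM in resistant libraries (median 81.8). Libraries 1, 2, 3 and 8 lay at 63.0 CPM or below and libraries 4 and 7 above the sensitive range (log2 fold change -0.30 ± 0.26, adjusted p = 0.379). Psme3 stood at 210, 171 and 210 CPM and at 114 to 242 CPM (median 160), with overlap and no call (adjusted p = 0.571). Psme4 stood at 147, 138 and 122 CPM and at 139 to 239 CPM (median 177). Resistant library 6, at 139 CPM, was the only resistant library within the sensitive range, and Psme4 was not called (log2 fold change 0.41 ± 0.16, adjusted p = 0.0579) but was without that library (adjusted p = 0.0328). Psmf1 stood at 31.3, 25.1 and 34.5 CPM and at 23.1 to 32.5 CPM (median 25.6) and was not called (adjusted p = 0.399). None of the 7 assembly chaperones was called by edgeR or DESeq2, and at an unadjusted p under 0.05 there was 1 lower, Psmg4 (log2 fold change -0.47 ± 0.21).

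**Figure D4:**
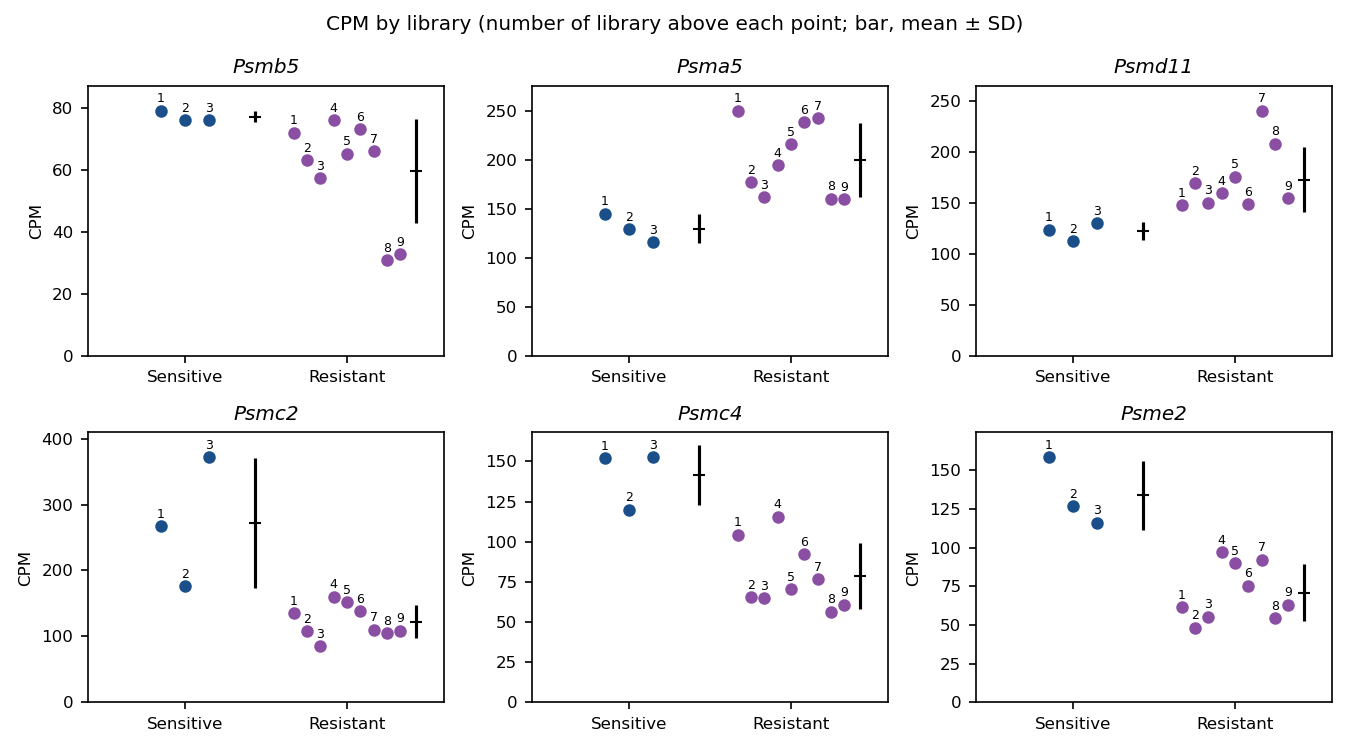
CPM in each sensitive (n = 3) and resistant (n = 9) library of Psmb5 and of 5 subunits called in this comparison, with the library number at each point and the mean ± SD as a bar. Psmc2, Psmc4 and Psme2 lie lower in every resistant library than in any sensitive one, Psma5 and Psmd11 lie higher, and Psmb5 is lowest in resistant libraries 8 and 9.

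The resistant libraries differed widely among themselves. Over the 43 tested members the highest resistant library exceeded the lowest by a median ratio of 1.96, against 1.22 over the sensitive libraries. For the 9510 genes at a mean of 10 CPM or more in the resistant libraries that ratio was 2.21, and it was 1.29 for 9641 genes in the sensitive ones. The range over 9 libraries is bound to be wider than that over 3. Psmb3 had the widest ratio of the members at 3.01, followed by Psmg1 at 2.97, and the ratio was 2.47 for Psmb5. Resistant libraries 2 and 3 were both among the lowest 3 for 30 of the 43 members. Library 3 was the lowest of all for 21 members and library 2 for 8. The same counts over all genes are not given here, so no trait particular to the members can be read from them. Psmd8, a lid subunit, went the other way, at 328 and 342 CPM in libraries 2 and 3 against 187 to 272 CPM in the other 7, and Psmd5 was the other member with both among the highest 3. The 20S sum was 1604 and 1520 CPM per kilobase in libraries 2 and 3, 1891 and 1882 in libraries 8 and 9, and 2257 to 2882 in the other 5, against 1818 to 2097 in the sensitive group. The 19S sum was 1440 to 1916 CPM per kilobase over the resistant libraries, and the ratio of 19S to 20S was highest in libraries 3 (0.948) and 2 (0.908) and lowest in library 5 (0.665). Sensitive libraries had ratios of 0.787 to 0.877, within the resistant range. Libraries 2 and 3, and likewise 8 and 9, were the closest pairs of the group over all genes, and the labels do not say whether they share a culture. Summing each pair to 1 library, chosen after seeing the data, again gave 3 members higher and 3 lower. Library 2 was also the shallowest and the one with the highest T cell and B cell marker sums, and the part of either in these levels was not tested.

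The inducible catalytic subunits made up 20.14 to 21.4% of the catalytic sum per kilobase in sensitive libraries and 4.74 to 20.08% in resistant ones, so that the groups did not overlap, by little. The inducible sum itself did overlap, at 107 to 119 CPM per kilobase in sensitive and 15.9 to 163 in resistant libraries. Psmb9 stood at 31.8, 30.9 and 46.5 CPM in sensitive and at 2.11 to 29.7 CPM in resistant libraries, also without overlap. The resistant libraries were split. Libraries 1, 2, 3 and 6 had shares of 4.74 to 5.17%, and the others 12.9 to 20.08%. Psmb8 stood at 5.97 to 9.53 CPM in libraries 1, 2, 3 and 6 and at 54.8 to 194 CPM in the other resistant libraries. In sensitive libraries Psmb8 stood at 102 to 115 CPM. None of the 3 inducible genes was called between the groups by edgeR or DESeq2, with an unadjusted p of 0.0501 for Psmb9 as the lowest. Of the genes that work with the proteasome, 7 of 31 were called higher in resistant libraries and 1 lower, and 23 were not called. That is 22.6% higher, against 19.3% of all genes, and 3.23% lower, against 18.2%. Ecpas, which tethers and remodels the 26S particle, led its group of 9, of which 3 were called higher (log2 fold change 0.57 ± 0.16, adjusted p = 0.0141). Of the shuttles, Ubqln4 was called (0.55 ± 0.19, adjusted p = 0.0349), and of the NRF1 genes and the VCP partners none was, by edgeR or by DESeq2. Ngly1 and the VCP partner Nploc4 reached unadjusted p-values of 0.0265 and 0.0247 in edgeR's test. Ubb, a polyubiquitin gene, was called lower (-0.58 ± 0.21, adjusted p = 0.0479). That call ended in 13 of the alternatives, and 51.0 to 55.6% of the counts of Ubb in this table lay on a copy in both groups.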

How the data were processed

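The deposited tables hold raw counts per gene; per the submitters' processing notes the reads were aligned with STAR 2.6.0a to mm10 and DESeq2 1.26.0 was used. Neither the read counter nor the annotation is given in the sources used here, and neither is the treatment of reads with several matches. The tables also hold 19 other per-sample columns that were not used. Each table was fitted whole with edgeR 4.0.16 in R 4.3.3 (filterByExpr, TMM scaling, quasi-likelihood test, Benjamini-Hochberg adjustment, threshold 0.05), and SE is the fold change divided by the root of F. DESeq2 1.42.0, other scalings and filters, a replicate block, thinned NSCLC counts and left-out libraries were alternatives. The fit was tested on simulated counts. CPM per kilobase used the principal GENCODE transcript. Copies were found with BLAST+ 2.17.0 (at least 90% identity, 300 bases and 50% of the copy). Only annotated pseudogenes and, by name, the gene Psme2b were kept as copies. No 2 libraries of a group held identical counts.

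Named in full were Psmb5, Psmb6, Psmb7, the activators and Psmf1, the 3 largest called changes in each direction, the largest call per class and per group of related genes, and untested members. Subunits not called, per-kilobase leaders and extreme libraries were added after their values were seen. The members and lists were chosen with earlier results of these data known. In mm10, exons of Psmb5, Psmd1 and Psmg3 overlap another gene on the same strand (3 members) and those of 9 members one on the opposite strand, and their counts are uncertain to that extent. Some results on genes of ubiquitin are not reported here.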

Additional observations from a re-analysis of the deposited data

Results flagged for a closer look

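Of 94 sets of 4 or 9 library values screened, 6 held a library far from the others of its group, and chance gives about 1 in 20 sets. Among the NSCLC libraries, Psma5 stood at 104 CPM in library 1 against 87.3 to 90.2 CPM in the others. Library 4 held 124 CPM of Psmc4, against 81.7 to 87.0 CPM, and 117 CPM of Psmd12, against 93.5 to 95.3 CPM. The immunoproteasome share of the catalytic sum was 5.50% in NSCLC library 3 against 3.47 to 3.71%. Among the resistant libraries, Psmd7, a lid subunit, stood at 309.6 CPM in library 1 against 172 to 225 CPM. Psmg4 stood at 29.8 CPM in resistant library 6 against 13.9 to 21.3 CPM.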

How the results depend on the processing

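In NSCLC against normal, the members called higher numbered 25 to 32 over all alternatives and 26 to 32 with 1 library left out, and 22 of the 32 were called under every one. Over all genes, 4410 to 5742 were called higher over all alternatives and 4490 to 5339 with 1 library left out, against 5672. Genes called lower numbered 4092 to 5791, against 4983. The genes tested varied from 14214 (filter at 1 CPM) to 32552 (no filter). Members called lower, 0 in the report, were 2 (Psme1 and Psmf1) with upper quartile scaling, 1 (Psmf1) with a filter at 1 CPM, 1 (Psmf1) with NSCLC thinned to normal depth, and 0 to 1 with 1 library left out. These settings moved the median of all genes by -0.18, -0.14 and -0.13 on the log2 scale. Vcp reversed to -0.43 with copies summed. In resistant against sensitive, members called higher were 0 to 4 with 1 library left out, with 1, 0 and 1 without sensitive libraries 1, 2 and 3, and all genes called higher were 1765 to 2867 against 2768. Psmc2 and Psmc4 were the 2 members called under every alternative. Same-numbered libraries were not treated as paired, since the labels do not say what a number marks. Their deviations did not all correlate above 0.1 (correlations of -0.03, 0.03 and -0.01 in the first table and 0.18, 0.25 and -0.18 in the second). Libraries of different number correlated at -0.335 to 0.285 in the second table, so these correlations can neither show nor exclude pairing. With a replicate block, 25 members were higher and 0 lower in NSCLC, against 4438 and 4328 of 18435 genes tested. In resistant libraries 0 members were higher and 4 lower, against 1914 and 2191 of 13437 genes. Psmb6 reversed there to -0.14 and Psmb7 to -0.025 without a call. The block fits kept only numbers found in both groups, so of the resistant libraries only 1, 2 and 3 entered. Blocking and the choice of libraries cannot be told apart in these fits. The causes of these changes were not tested, except that the block and the left-out fits use fewer libraries. Psma8 and Psmb11 had too few counts to test at any depth here, and the unequal depth of normal and NSCLC libraries cannot be told apart from group.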
